A study of Mus musculus with 6 samples.

Results

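The clustered protocadherins are cell surface proteins of the cadherin superfamily whose genes lie in 3 neighbouring arrays, named alpha, beta and gamma. In the deposited table of 36814 genes, 24 rows carry a symbol that starts with Pcdha, Pcdhb or Pcdhg. These are 22 beta genes, Pcdhb1 to Pcdhb22, and 1 row each for the alpha array (Pcdha) and the gamma array (Pcdhg). No symbol occurred more than once and no row held a value below 0.

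Neurons are known to switch on only some of these genes, through a choice of promoters that involves CTCF, cohesin and DNA methylation. The chosen proteins form mixtures on the cell surface that bind identical mixtures on other cells, and they are known for the self-avoidance of neurites and for the survival and wiring of spinal neurons. In the alpha and gamma arrays each variable first exon is spliced to constant exons that encode a shared cytoplasmic tail, so transcripts of an array have sequence in common. Beta genes lack constant exons, and each is read as a gene of its own.

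RNA was measured in proprioceptors, the sensory neurons that report muscle length and force, of a mouse reporter line labelled Pv::YFP. The retrograde tracer ctb-555 was injected into the tibialis anterior (TA), an ankle flexor, or the gastrocnemius (GS), an ankle extensor, at postnatal day 0, and neurons that carried the tracer were hand-picked 1 day later, at postnatal day 1. Each of the 3 TA and 3 GS libraries is labelled a biological replicate and came from a pool of 25 to 30 neurons. The sources used here do not give strain, sex, the number of animals or whether pools came from separate animals, so p-values measure the spread between these pools only. Where 3 values are given for a muscle, they are replicates 1, 2 and 3 in that order.

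The libraries held 7038296 to 21125960 net reads, the fewest in TA replicate 2 and the most in TA replicate 3. A net read is the whole number deposited per gene, and RPKM is that number per kilobase of gene and per 1000000 of a fixed total, which was 13167570 to 32977601 and above the net reads in every library. Markers of proprioceptors and large sensory neurons, 10 of 10 present, summed to 7013 to 8511 RPKM in the TA pools and 6732 to 9822 RPKM in GS. Most of that sum came from the neurofilament genes Nefl (mean of 4382 RPKM over the 6 libraries) and Nefm (2727 RPKM). Pvalb, which encodes the parvalbumin that marks these neurons, was at 70.1 ± 22.8 RPKM in the TA pools and 15.3 ± 14.2 RPKM in the GS pools (SD, n = 3), with a limma adjusted p of 0.168. Other markers of that list ran the other way: Spp1 was at 5.36 ± 2.25 RPKM and 56.5 ± 16.9 RPKM, with a limma adjusted p of 0.0150, and Etv1 was at 227 ± 32.1 RPKM and 319 ± 5.59 RPKM, with a limma adjusted p of 0.524. TA replicate 3 held 315 RPKM of the 10 skeletal muscle markers, against 0.298 to 5.12 RPKM in the other libraries. The 8 connective tissue and vessel markers summed to 28.7 RPKM in that library and to 0.423 to 6.29 RPKM elsewhere. Satellite glia and Schwann cell markers, 10 genes, summed to 184 to 222 RPKM in the TA pools and 113 to 236 RPKM in GS. Nociceptor markers, 8 genes with Mrgprd at 0 in every library, summed to 39.5 to 80.0 RPKM in the TA pools and 29.1 to 171 RPKM in GS, highest in GS replicate 2.

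The arrays lie in the order alpha, beta, gamma on chromosome 18, all on the plus strand. In mm9, the build named in the submitters' processing notes, Pcdha spans 37089939 to 37347314, the beta genes 37424652 to 37681073 and Pcdhg 37821599 to 38001526. The Pcdha row covers 257376 bases and the Pcdhg row 179928 bases. In GENCODE M21, a later annotation on another build, 13 alpha models cover 257478 bases and 22 gamma models 180081 bases. In that annotation 3 exon starts are common to all alpha models and 3 to all gamma models, and none is common to the beta models. All 22 beta models there have a transcript of 1 exon. The Pcdha and Pcdhg rows are therefore read here as whole arrays, and single alpha and gamma genes, the C-type genes among them, were not analysed here apart from 1 entry of a deposited list. The lengths behind their RPKM, 24688 and 28980 bases, add up many alternative exons, of which a transcript holds few. Their RPKM can be compared between libraries, but not with the RPKM of a beta gene as a number of molecules.

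Beta genes were at low levels in every library. The mean RPKM over the 6 libraries ran from 0 for Pcdhb1 to 3.40 for Pcdhb16, and 11 of the 22 genes reached a mean of 1. Pcdhb1, the first gene of the array, was listed at 0 in every library. Of the others, 13 had a net read in all 6 libraries and 8 were listed at 0 in at least 1. Pcdhb16 alone had at least 1 RPKM in all 6 libraries. In pooled neurons, fewer cells with a transcript and less transcript per cell cannot be told apart.

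Mean levels over the 6 libraries were higher towards the end of the array. The first 11 genes, Pcdhb1 to Pcdhb11, had a median of mean values of 0.660 RPKM, and the last 11, Pcdhb12 to Pcdhb22, had 2.19 RPKM. A mean of 1 RPKM was reached by 2 of the first 11, Pcdhb5 and Pcdhb10, and by 9 of the last 11. Across the 22 genes, Spearman's rho between position and mean RPKM was 0.78. In single libraries rho was 0.65, 0.18 and 0.63 in the TA pools and 0.53, 0.65 and 0.73 in the GS pools, with the lowest value in the library of lowest depth. These values describe 22 genes that share the same libraries and carry no test.

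**Figure D1:**
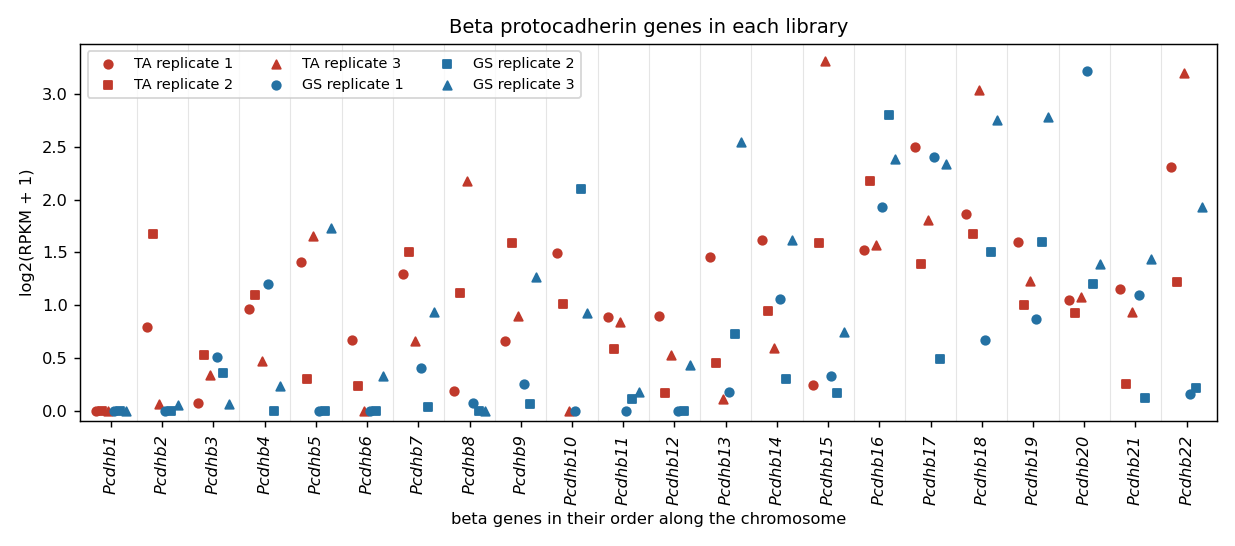
Levels of the 22 beta genes, as log2(RPKM + 1), in their order along the chromosome. Each point is 1 library, red for TA and blue for GS, with a marker shape for each replicate; genes from Pcdhb13 on hold most of the high points, and within a gene the libraries of 1 muscle are widely spread.

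The 6 beta genes with the highest means were Pcdhb16, Pcdhb18, Pcdhb17, Pcdhb22, Pcdhb20 and Pcdhb19, all near the end of the array. Pcdhb16 was at 1.88, 3.53 and 1.97 RPKM in the TA pools and at 2.81, 5.97 and 4.21 RPKM in the GS pools. Its values overlapped between the muscles, with GS replicate 2 highest. Pcdhb18 was at 2.65, 2.18 and 7.20 RPKM in the TA pools and at 0.595, 1.83 and 5.75 RPKM in the GS pools. Replicate 3 was the highest in both muscles. Pcdhb17 was at 4.67, 1.63 and 2.5 RPKM in the TA pools and at 4.29, 0.403 and 4.05 RPKM in the GS pools, so that the low library was replicate 2 in each muscle. Pcdhb22, the last gene of the array, was at 3.95, 1.34 and 8.19 RPKM in the TA pools and at 0.117, 0.165 and 2.82 RPKM in the GS pools. The GS values were near 0 in replicates 1 and 2, and GS replicate 3 lay above TA replicate 2. Pcdhb20 was at 1.07, 0.899 and 1.11 RPKM in the TA pools and at 8.28, 1.30 and 1.62 RPKM in the GS pools. Its TA values were alike, all GS values lay above them, and GS replicate 1 stood far from the other GS libraries. Pcdhb19 was at 2.02, 1.0 and 1.35 RPKM in the TA pools and at 0.832, 2.04 and 5.88 RPKM in the GS pools, which overlap.

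Beta genes near the start of the array included several that were seen almost only in some libraries. Pcdhb2 had 31, 80 and 4 net reads in the TA pools and 0, 0 and 2 in the GS pools. Pcdhb5 had 89, 11 and 251 net reads in the TA pools and 0, 0 and 139 in the GS pools. Pcdhb10 had 79, 38 and 0 net reads in the TA pools and 0, 184 and 43 in the GS pools. For Pcdhb5 the presence of reads divided the GS libraries. For Pcdhb10 it divided the libraries within each muscle and did not divide the muscles. These 3 genes were singled out after their values were seen.

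Fewer beta genes were detected in 2 of the GS libraries. At least 1 net read was found for 21, 21 and 19 of the 22 beta genes in the TA pools and for 15, 15 and 20 in the GS pools. Leaving out Pcdhb1, 2 of 63 values were listed at 0 in TA and 13 of 63 in GS, and the GS pools held 6, 6 and 1 of these. The number did not follow depth: TA replicate 2, with the fewest net reads, had 21, and GS replicate 2, with 12226365 net reads, had 15. GS replicates 1 and 2 also had the fewest genes of any kind with a net read, 13950 and 12658, against 15432 in GS replicate 3 and 15530 to 16302 in TA. The part of that wider difference in the beta counts was not tested. At a threshold of 10 net reads the counts were 18, 19 and 18 in the TA pools and 12, 10 and 17 in the GS pools.

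**Figure D2:**
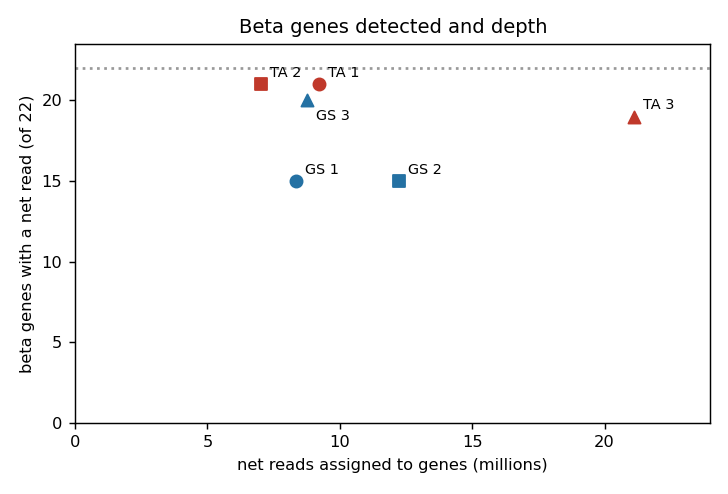
Number of the 22 beta genes with at least 1 net read (vertical axis) against the net reads assigned to genes in each library (horizontal axis, in units of 1000000). Each point is a library, and the dotted line marks 22 genes; GS replicates 1 and 2 lie at 15, below the other 4 libraries at 19 to 21, at middle depths.

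The summed level of the beta array differed less between muscles than between libraries of a muscle. It was 31.2, 24.9 and 41.8 RPKM in the TA pools and 21.8, 16.5 and 40.2 RPKM in the GS pools. The means were 32.6 ± 8.53 RPKM in the TA pools and 26.2 ± 12.4 RPKM in the GS pools (SD, n = 3). GS replicate 3 lay with the TA libraries, and the ranges overlapped.

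Which beta gene led differed from library to library, and 5 different genes led the 6 libraries. Pcdhb17 led TA replicate 1 with 15.0% of the summed beta RPKM, Pcdhb16 led TA replicate 2 with 14.2% and Pcdhb15 led TA replicate 3 with 21.3%. In GS, Pcdhb20 led replicate 1 with 37.9%, Pcdhb16 led replicate 2 with 36.1% and Pcdhb19 led replicate 3 with 14.6%. The 3 highest genes of a library together made up 36.2%, 31.7% and 58.1% in the TA pools and 70.4%, 68.3% and 41.0% in the GS pools. GS replicates 1 and 2, in which the fewest beta genes were detected, were thus also those in which few genes made up most of the signal. TA replicate 3 came next.

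**Figure D3:**
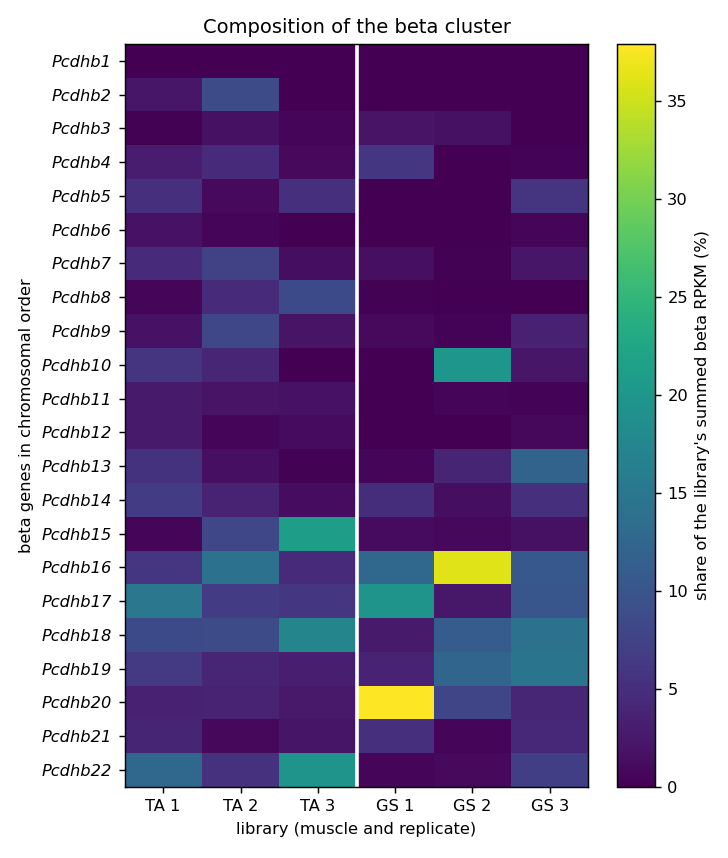
Share of each beta gene (rows, in chromosomal order) in the summed beta RPKM of each library (columns, TA left and GS right of the white line), in percent by colour. The brightest cells are Pcdhb20 in GS replicate 1 (37.9%) and Pcdhb16 in GS replicate 2 (36.1%), and no gene leads all libraries of a muscle.

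Beta profiles were compared between libraries. Across the 22 beta genes, Pearson's r of log2(RPKM + 1) averaged 0.36 over the 3 TA pairs (0.30 to 0.47), 0.46 over the 3 GS pairs (0.41 to 0.57) and 0.36 over the 9 pairs between muscles (0.11 to 0.79). The highest value, 0.79, joined TA replicate 1 and GS replicate 3. Across all 10828 genes tested, the averages were 0.87, 0.76 and 0.79. These correlations are across genes, pairs share libraries, and no test was made of them. Beta genes have lower values than most genes tested, and values near 0 rest on few reads. They also span a narrower range of levels, so their r is not like for like with that over all genes. No set of genes matched for level was compared.

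The spread between replicates was wide for beta genes. For the 11 beta genes with a mean of at least 1 RPKM, the SD within muscles on the log2(RPKM + 1) scale ran from 0.40 for Pcdhb16 to 1.10 for Pcdhb15, with a median of 0.87. Over the 4028 genes tested with a mean in the same range, 1.06 to 3.40 RPKM, the median was 0.62, and the middle 50% ran from 0.45 to 0.83. Of the 11 beta genes, 9 lay above that median. The Pcdha and Pcdhg rows, read here as whole arrays, had 0.46 and 0.52. The median over all genes tested, a set not matched to their level, was 0.57. These are descriptions with no test.

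Beta paralogs share some sequence. Of all stretches of 50 bases in a beta transcript of GENCODE M21, between 0% (Pcdhb1) and 12% (Pcdhb12) also occurred in another beta transcript, with a median of 4.26% over the 22 genes. Pcdhb21 had 11.3%, of which most was shared with Pcdhb22. In the deposited table no beta genes overlapped, and the smallest gap was 39 bases, between Pcdhb21 and Pcdhb22. The sources used here do not give how reads that match several genes were assigned, so values of Pcdhb12, Pcdhb21 and Pcdhb11 (9.52%), which share the most, are the least certain in this respect. Pcdhb22 had 8.02%.

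The alpha array was at like levels in 5 of the 6 libraries. Pcdha was at 11.1, 10.4 and 12 RPKM in the TA pools (4172, 3393 and 9762 net reads) and at 12.9, 26.8 and 11.1 RPKM in the GS pools (5313, 13034 and 4617 net reads). GS replicate 2 stood apart and the muscles overlapped. The means were 11.2 ± 0.781 RPKM in the TA pools and 16.9 ± 8.58 RPKM in the GS pools (SD, n = 3). Without GS replicate 2 the ratio of TA over GS was 0.932, against 0.660 with it. That library also held the highest sum of nociceptor markers, whose part in the value was not tested.

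The gamma array was higher in every TA library than in any GS library. Pcdhg was at 17.5, 10.4 and 13.0 RPKM in the TA pools (7759, 3985 and 12415 net reads) and at 3.59, 9.53 and 8.08 RPKM in the GS pools (1735, 5453 and 3959 net reads). The gap between TA replicate 2 and GS replicate 2 was small. The means were 13.7 ± 3.59 RPKM in the TA pools and 7.07 ± 3.10 RPKM in the GS pools (SD, n = 3), a ratio of 1.93. On the log2(RPKM + 1) scale the difference was 0.92 ± 0.43 (SE, limma), with a 95% interval of -0.04 to 1.87 and a limma adjusted p of 0.504. It therefore missed the adjusted threshold. Over the alternatives the limma adjusted p ran from 0.376 to 0.921. Without TA replicate 3, the library with muscle markers, the difference was 0.94, and without GS replicate 1 it was 0.55. GS replicate 1, the lowest for Pcdhg, also had the lowest sum of glial markers (113 RPKM), whose part in the value was not tested.

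Within each library, the net reads of the gamma array can be set against those of the alpha array, which leaves out differences in total depth. The ratio of gamma to alpha was 1.86, 1.17 and 1.27 in the TA pools and 0.327, 0.418 and 0.857 in the GS pools. The rows differ in length (24688 bases for Pcdha and 28980 for Pcdhg), so a ratio of 1 does not mark equal levels. In TA replicate 2, for example, both rows were at 10.4 RPKM. Each TA ratio lay above each GS ratio. The means were 1.44 ± 0.371 in the TA pools and 0.534 ± 0.284 in the GS pools (SD, n = 3). This ratio was chosen after the values were seen and was not tested. Scaled to 1000000 net reads, the 3 arrays together took 1225 to 1495 in TA and 1016 to 1636 in GS.

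**Figure D4:**
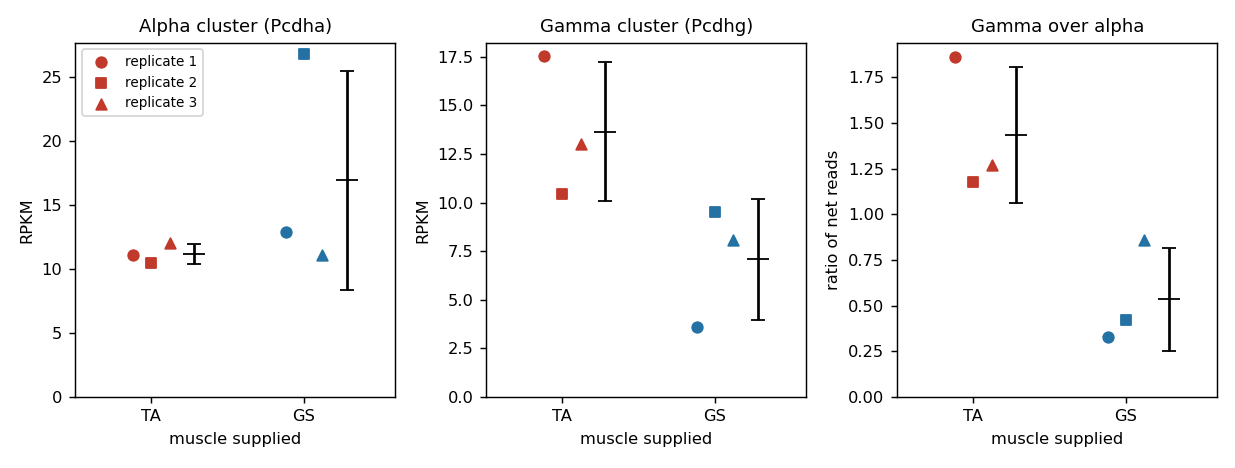
Level of the alpha array (left, RPKM), level of the gamma array (middle, RPKM) and ratio of gamma to alpha net reads (right) in each TA and GS library. Coloured points are libraries, with a marker shape for each replicate, and black bars are the mean and SD of 3 libraries; the alpha values overlap with GS replicate 2 at 26.8, and the gamma values and the ratio do not overlap between muscles.

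TA and GS were then compared over all genes. The question was whether proprioceptors of a flexor and an extensor differ in RNA for these surface proteins. Protein was not measured. Of the 24 rows, 13 had a mean of at least 1 RPKM and entered the test: Pcdha, Pcdhg and 11 beta genes. With limma and Benjamini-Hochberg adjustment, 0 of the 13 passed an adjusted p under 0.05, where 0.305% of all 10828 genes did (0.175% towards TA and 0.129% towards GS). At an unadjusted p under 0.05 there was 1 of the 13, Pcdhb22, where 10.4% of all genes lay under that value and 8.3% did so towards TA. A p that misses the threshold does not show equal levels, and the intervals below give the differences that these pools leave possible.

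Of the 11 beta genes tested, 6 had a higher mean log2 value in the TA pools and 5 in the GS pools. Pcdhb22 had a log2 fold change, TA minus GS, of 1.47 ± 0.66 (SE) with a 95% interval of 0.02 to 2.93, a limma unadjusted p of 0.0476 and an adjusted p of 0.475. Without TA replicate 3 its ratio of mean RPKM fell from 4.35 to 2.56. Pcdhb15 had 1.30 ± 0.71, an interval of -0.28 to 2.88 and a limma adjusted p of 0.576. Pcdhb20 had -0.92 ± 0.58, an interval of -2.21 to 0.37 and a limma adjusted p of 0.624, and a difference of -0.28 without GS replicate 1. Pcdha had -0.46 ± 0.40, an interval of -1.35 to 0.43 and a limma adjusted p of 0.732. The other 9 rows lay between -0.61 for Pcdhb16 and 0.92 for Pcdhg.

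The direction of the beta genes as a group depended on the scaling. The median log2 fold change of the 13 rows was 0.06, where that of all genes tested was 0.24 towards TA, and 66% of all genes had a higher mean log2 value in TA. With each library centred on its median, or with quantile normalization, 4 of the 11 beta genes were higher in the TA pools and 7 in the GS pools. Pcdhb14 and Pcdhb17 were the genes that changed side. Pcdhg stayed higher in TA under both scalings, with log2 fold changes of 0.71 and 0.78.

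**Figure D5:**
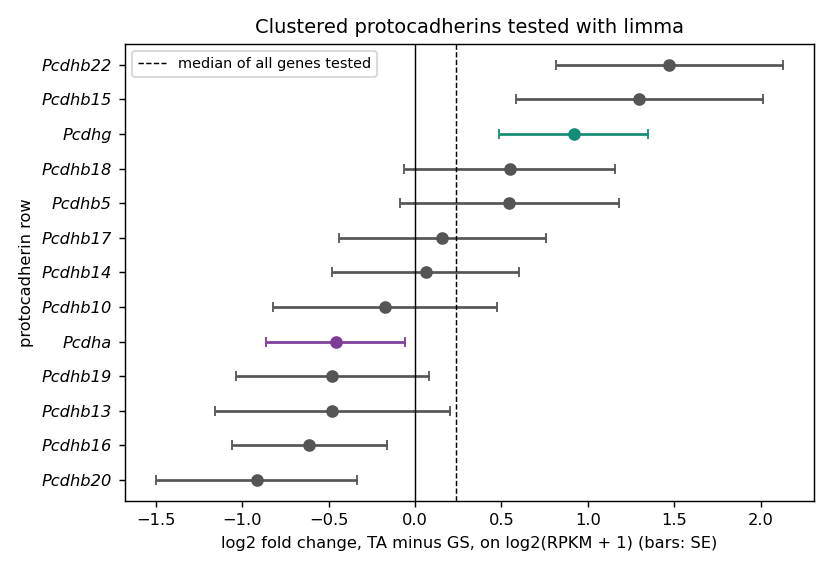
Log2 fold change (mean TA log2(RPKM + 1) less that of GS) of the 13 protocadherin rows tested with limma, with bars of 1 SE. The solid line is 0 and the dashed line is the median of all genes tested (0.24); Pcdhb22 lies farthest towards TA (1.47) and Pcdhb20 farthest towards GS (-0.92), and no row passed the adjusted threshold.

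Values of the muscles did not overlap in 5 of the 24 rows. Pcdhg and Pcdhb20 were in the test, where the muscles did not overlap for 13.1% of all genes towards TA and for 3.48% towards GS. Pcdhb2, Pcdhb8 and Pcdhb11, all towards TA, lay below a mean of 1 RPKM. Among the 18604 genes with a value above 0 in any library, the share was 11.5% towards TA and 2.43% towards GS. For Pcdhb2 the lack of overlap rested on TA replicate 3 (4 net reads, 0.0437 RPKM) against GS replicate 3 (2 net reads, 0.0427 RPKM). For Pcdhb8 the lowest TA library had 5 net reads and the highest GS library had 2. Pcdhb11 was at 0.852, 0.504 and 0.797 RPKM in the TA pools (47, 24 and 95 net reads) and at 0, 0.0841 and 0.131 RPKM in the GS pools (0, 6 and 8 net reads). Tested with no filter on low values, its log2 difference of 0.68 ± 0.16 (SE) had a limma unadjusted p of 0.00432 and an adjusted p of 0.420, and 6.72% of the 18604 genes had an unadjusted p under 0.05 towards TA in that fit. Pcdhb11 was picked for its values, and 9.52% of its stretches of 50 bases occur in other beta transcripts.

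Over the 21 beta genes with any reads, 15 had a higher mean log2 value in the TA pools and 6 in the GS pools, where 67.5% of the 18604 genes were towards TA. Their median difference was 0.36, and that of the 18604 genes, a set not matched in level to the beta genes, was 0.13. Among the genes tested the order was the reverse, with medians of 0.06 for the 11 beta genes and 0.24 for all 10828 genes. Under median centring and under quantile normalization, 4 of those 11 were higher in the TA pools and 7 in the GS pools. Of the 15, 9 lay below the filter. Pcdhb3, with 3 to 33 net reads a library, is counted among the 15 with a difference of 0.00. Leaving out 1 library moved it between -0.12 and 0.12, and moved Pcdhb21, counted among the 6, between -0.49 and 0.17.

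The authors' deposited list of genes higher in TA held 395 entries. Of these, 394 are genes of the table, or 2.08% of its 18986 genes with a net read, and the other is a protocadherin entry inside the Pcdhg row. Clustered protocadherins made up 3 entries, that one, Pcdhb8 and Pcdhb15, so 2 of the 24 rows were listed. The authors' deposited list of genes higher in GS held 334 genes (1.76%) and no clustered protocadherin. In the authors' deposited table Pcdhb8 had a ratio of TA over GS of 111.7 (inverted from the listed GS over TA), with 2 net reads in all of GS, a p-value of 0.00698 and an adjusted p-value of 0.3875. Pcdhb15 had a ratio of 12.56, a p-value of 0.00946 and an adjusted p-value of 0.4514 in the authors' deposited table. The entry named Pcdhga12, a variable exon of the gamma array, had a ratio of 5.618, a p-value of 0.0158 and an adjusted p-value of 0.6023 in the authors' deposited table. None of the 3 was under an adjusted p of 0.05 there.

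The Pcdhga12 entry covers 2961 bases (chromosome 18, 37925234 to 37928194, plus strand, mm9) inside the span of the Pcdhg row. In the authors' deposited table it was at 9.64 RPKM in the TA pools and 1.72 RPKM in the GS pools, 1 value per muscle with no replicates. Its direction was that of the whole Pcdhg row. An antisense gene model, Gm16882, overlaps it, with 36 to 169 net reads a library. The sources used here do not give whether reads were counted by strand.

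The libraries behind the other entries were uneven. Pcdhb8 (chromosome 18, 37514726 to 37517264, plus strand) had 5, 36 and 274 net reads in the TA pools and 2, 0 and 0 in the GS pools. Pcdhb15 (chromosome 18, 37633200 to 37635994, plus strand) had 8, 74 and 821 net reads in the TA pools and 12, 7 and 32 in the GS pools. TA replicate 3 thus held 87.0% of the TA net reads of Pcdhb8 and 90.9% of those of Pcdhb15. Per length and depth, Pcdhb15 was at 0.187, 2.01 and 8.91 RPKM in the TA pools and 0.257, 0.127 and 0.677 RPKM in the GS pools, so that TA replicate 1 lay within the GS range. Without TA replicate 3 the ratio of mean RPKM of Pcdhb15 was 3.11, against 10.5 with it. For Pcdhb8 the TA mean was 1.61 RPKM with that library and 0.651 RPKM without it, against 0.0170 RPKM in GS. TA replicate 3 was also the library with 315 RPKM of skeletal muscle markers, whose part in these values was not tested.

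Genes that act on the arrays or with their proteins were read from lists. Of 20 genes of array architecture and promoter choice, 18 were tested, 0 passed the limma adjusted threshold and 0 lay under an unadjusted p of 0.05. Ctcf, Rad21 and Dnmt3b are added for their known roles, outside the rule for named genes. Ctcf, whose protein binds the variable promoters, was at 3.52 ± 0.595 RPKM in the TA pools and 3.69 ± 1.21 RPKM in the GS pools (SD, n = 3). Rad21, a cohesin subunit, was at 18.1 ± 4.73 and 18 ± 4.84 RPKM. Dnmt3b, a DNA methyltransferase linked to promoter choice before birth, lay near 0, at 0.00428 ± 0.00741 RPKM in the TA pools and 0.130 ± 0.206 RPKM in the GS pools. The members with the smallest unadjusted p were Pds5b, a cohesin regulator, at 6.39 ± 0.461 and 4.25 ± 0.961 RPKM, Setdb1, a histone methyltransferase, at 4.46 ± 1.71 and 3.0 ± 2.48 RPKM, and Wiz, at 3.71 ± 1.09 and 2.45 ± 1.45 RPKM.

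Of 23 cytoplasmic partners and processing enzymes, 20 were tested and 0 passed the limma adjusted threshold, with 2 under an unadjusted p of 0.05, both towards TA, where 8.3% of all genes were. Ncstn, nicastrin of the gamma-secretase that cleaves these proteins, was at 10.3 ± 1.44 RPKM in the TA pools and 3.55 ± 1.90 RPKM in the GS pools (SD, n = 3), with a limma log2 fold change of 1.39 and adjusted p of 0.336. Ret, a receptor tyrosine kinase that binds protocadherins, was at 3.28 ± 1.44 and 0.768 ± 1.18 RPKM, with a limma adjusted p of 0.432. Nlgn1, neuroligin 1, was at 3.57 ± 0.739 RPKM in the TA pools and 6.88 ± 1.23 RPKM in the GS pools, with a limma adjusted p of 0.530. The muscles did not overlap for 3 genes of this list towards TA, where 13.1% of all genes did not, and for 1 towards GS, where 3.48% did not. These were Ncstn, Wasf3 (20.2 ± 1.28 and 12.8 ± 0.919 RPKM) and Brk1 (46.5 ± 13.3 and 30.2 ± 3.31 RPKM), and Nlgn1. Wasf3 and Brk1, subunits of the WAVE complex that binds protocadherin tails, were named after their values were seen.

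Of 11 genes beside the arrays, 8 were tested, 0 passed the limma adjusted threshold, 0 lay under an unadjusted p of 0.05, and all 8 had a higher mean log2 value in TA, where 66% of all genes did. Under median centring and under quantile normalization 5 of the 8 were higher in the TA pools and 3 in the GS pools. Fchsd1, which lies beyond the gamma array, was at 22.1 ± 11.8 RPKM in the TA pools and 10.7 ± 0.989 RPKM in the GS pools (SD, n = 3), with a limma adjusted p of 0.536. Hars, beside the alpha array, was at 25.6 ± 2.71 and 18.9 ± 3.35 RPKM. Taf7, a transcription factor subunit whose gene lies between the beta and gamma arrays, was at 3.90 ± 0.675 and 2.57 ± 1.88 RPKM.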

How the data were processed

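The authors deposited a table of whole net reads and net RPKM per gene and library, per the file headers. Some value is below 0 in 683 genes. The sources used here do not give the reason, the counting program, its annotation or its use of strand. All 38 mitochondrial genes are listed at 0, so a 0 is described only as listed at 0. Bowtie 0.12.9, DESeq (no version) and the build mm9 are named in the submitters' processing notes. The authors also deposited lists of genes higher in TA or in GS that hold, per the file headers, a read signal and RPKM for each muscle, their ratio (fold) and a raw and adjusted p-value.

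The clustered protocadherins and the gene lists were chosen with earlier results of these data known. Genes with a value below 0 were left out, the row with the highest mean was kept per symbol, and the 10828 genes whose mean reached 1 RPKM were tested. TA and GS were compared on log2(RPKM + 1) with limma 3.58.1 in R 4.3.3, with a trend, group as the only term and Benjamini-Hochberg adjustment over all genes tested. The steps were tested on simulated data with 200 of 10828 genes changed, in 5 runs for each fold. Of these changes, 76.8% were recovered at 4-fold and 99.2% at 8-fold, with 10.8 and 14.2 false calls a run. The noise was normal with an SD smoothed over genes of like level, so recovery was not measured for the wider spread of beta genes. A log2 fold change is TA minus GS and understates changes of low genes.

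Libraries had 7038296 to 21125960 net reads. Named members are the 6 beta genes with the highest means, the 3 with the smallest unadjusted p, and the Pcdha and Pcdhg rows. From each of the 3 lists (array architecture, partners, neighbouring genes), called genes or the 3 with the smallest p are named. Marker lists are given as sums, with Pvalb, Spp1, Etv1, Nefl and Nefm named from the proprioceptor list. P2rx3 and Tac1 are named from the nociceptor list. Ctcf, Rad21 and Dnmt3b were added outside that rule. The design had assumed plain RPKM, and values below 0 made the unit net RPKM, with no count model run. The ratio of gamma to alpha and the values without TA replicate 3 were added after seeing the data. Alternatives changed the pseudocount (0.1), filter, scaling, moderation, replicate block and libraries.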

Additional observations from a re-analysis of the deposited data

How the results depend on the processing

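No clustered protocadherin and no gene of the lists on array architecture, partners and neighbouring genes was called with limma under any of the 14 alternatives to the main setting, and the smallest adjusted p of a member was 0.239 (Pcdhb22 without GS replicate 3). Over all genes, 19 were called towards TA and 14 towards GS. These counts were 7 and 6 with a pseudocount of 0.1, 0 and 0 with no filter, 9 and 8 with a mean RPKM of at least 5, and 11 higher in TA with median centring. Leaving out 1 replicate gave 1 to 19 towards TA and 1 to 10 towards GS, with 1 and 2 without TA replicate 1 or 2, 1 and 1 without TA replicate 3, 3 and 3 without GS replicate 1, and 7 higher in GS without GS replicate 3.

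Of 163 values of the 13 tested members under alternatives, 9 changed sign. Pcdhb14 went to -0.15 with median centring, -0.42 with quantile normalization and -0.28 without GS replicate 2, and ranged from -0.28 to 0.29 without 1 replicate. Pcdhb17 went to -0.049 and -0.28 with the same scalings, and ranged from -0.47 to 0.49 without 1 replicate (-0.14 without TA replicate 1, -0.47 without GS replicate 2). Pcdhb10 reached 0.25 without TA replicate 3, with -0.67 as the lowest value, and Pcdhb19 reached 0.037 without GS replicate 3, with -0.92 as the lowest.

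The ratio of TA over GS of the alpha array ranged from 0.563 to 0.932 without 1 replicate, that of the summed beta genes from 1.05 to 1.70, and that of the gamma array from 1.55 to 2.34. Without TA replicate 3 the ratio of mean RPKM of Pcdhb18 was 0.887, against 1.47 with it. Counting beta genes at 1 RPKM or more gave 12, 12 and 9 in TA replicates 1, 2 and 3 and 6, 5 and 11 in GS replicates 1, 2 and 3.

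With the replicate number as a block, 8 genes were called towards TA and 8 towards GS, and the limma adjusted p of Pcdhg was 0.642. No pairing by number was seen in the values. Deviations of same-numbered libraries correlated at -0.07, -0.02 and -0.14, and no library correlated best with its own number. With so few pools this cannot show that same-numbered pools were unrelated. The cause of these shifts was not tested. Of the untested beta genes, Pcdhb3 and Pcdhb21 changed sign without 1 replicate, from -0.12 to 0.12 and from -0.49 to 0.17. Low net reads limit the beta genes below the filter.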

Other observations

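Other gene models lie inside the spans of the arrays, and the sources used here do not give whether reads were counted by strand. Gm10545, antisense inside the alpha span, had 35, 9 and 360 net reads in TA replicates 1, 2 and 3 and 0, 60 and 30 in GS replicates 1, 2 and 3. At its highest this equals 3.69% of the Pcdha net reads of TA replicate 3. Gm10544, also antisense there, had at most 35 net reads in a library. AC020968.2, on the same strand as the alpha genes, had 68, 77 and 156 net reads in TA and 24, 4 and 47 in GS. Gm16882, antisense inside the gamma span, had 169, 40 and 96 net reads in TA and 116, 97 and 36 in GS, at most 6.69% of the Pcdhg net reads of a library.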
